A study of Rattus norvegicus with 2 samples.

Results

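The cytosolic ribosomal proteins are the proteins that, with ribosomal RNA, make up the ribosome of the cytoplasm. The genes were taken by symbol: Rps or Rpl followed by a number, with or without a closing a, l or x, together with Rpsa and the stalk proteins Rplp0, Rplp1 and Rplp2. The rule found 72 genes, 27 of the small and 45 of the large subunit, among the 22093 rat genes that were named by a probe set with a single symbol. A gene with more than 1 probe set was read from the brightest, judged by its mean signal over both arrays.

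The study compared bladder carcinomas induced by dimethylarsinic acid (DMA), an organic metabolite of arsenic, with control bladder. Male F344 rats, 10 weeks old at the start, drank water with 0 or 200 ppm DMA for 2 years. The tissue is listed at 114 weeks of age. By the methods, rats that became moribund before the end were also sampled, and the controls were matched by age. Some tissue may thus be from younger rats. There were 2 arrays: Control, RNA of 5 rats of the 0 ppm group in 1 pool, and DMA-tumor, RNA of 6 carcinomas of the 200 ppm group in 1 pool. Both groups therefore share the strain, the sex and the listed age, and each is a single pooled measurement. The methods of the study count fewer tumors than the sample label does, and call growths urothelial carcinoma by their size.

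No replicate stood behind any value, so no difference below has an error or a test. Each signal is a linear probe set intensity in arbitrary units, and each difference is the log2 signal of DMA-tumor minus that of Control, negative where the tumor pool was lower. A gene was kept if its signal reached 100 on at least 1 array. This held for 12074 of all genes and for 71 of the ribosomal protein genes, and 70 of these reached it on both arrays. Rpl26 (102 in Control and 74.5 in DMA-tumor) lay just inside the limit. Rpl3l, a paralog of Rpl3 that is known from heart and skeletal muscle, lay outside it with 32.4 and 29.2.

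The arrays also differed as a whole. The median over all probe sets was 50.6 in Control and 52.3 in DMA-tumor, but the 99th percentile was 83299 and 171248. Most ribosomal protein genes give strong signals, so the scaling of bright probe sets bears directly on them, and values under other scalings are given where they change a statement.

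The control tissue is labelled as epithelium, yet it carried the markers of the bladder wall. All 6 fibroblast markers were at least 2-fold lower in DMA-tumor (median log2 difference −6.65), and their summed signal was 146737 in Control and 1246 in DMA-tumor. All 6 smooth muscle markers were lower by that limit as well (median −4.52, summed signal 55666 and 4184). Of 9 urothelial markers 6 were at least 2-fold lower (median −1.56, summed signal 2023160 and 757420), while 4 of 5 proliferation markers were at least 2-fold higher (median 3.68, summed signal 376 and 4501). Of 5 leukocyte markers 3 were kept, with a median of −0.87 (summed signal of all 5 1620 and 1013). Of all kept genes, 10.5% were at least 2-fold lower and 8.87% at least 2-fold higher. No marker was listed at 0, and the lowest marker signal was 39.8. The fibroblast, smooth muscle and most urothelial markers were thus lower in the pool in which most ribosomal protein genes were lower, and the proliferation markers were higher. The part of these markers in the results was not tested. In such bulk tissue, fewer cells of a type and less RNA per cell cannot be told apart.

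As background, the small subunit binds the mRNA and reads its codons, and the large subunit joins the amino acids and releases the growing chain through a tunnel. Ribosomal proteins are made in matched amounts, assembled with ribosomal RNA in the nucleolus, and degraded when in excess. Their mRNAs typically begin with a C followed by a run of pyrimidines, the 5′ terminal oligopyrimidine or TOP motif, through which the kinase mTOR and the RNA-binding protein LARP1 set their translation together. Growing and dividing cells typically make many ribosomes.

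The motif is shown at the start sites of the genes whose difference was lowest and of the genes that were not lower in the tumor pool. RefSeq start sites were given for 62 of the 72 genes. Each window holds 15 bases before the annotated start and the first 15 transcribed bases, 5′ to 3′ on the coding strand of GRCr8. Capitals mark runs of at least 5 pyrimidines (C or T) that overlap the 10 bases on either side of the start. The first lines are the 5 genes with the lowest differences, Rps10 (chr20:5700730-5700759, minus strand), Rps18 (chr20:4933730-4933759, plus), Rpl22 (chr5:168117946-168117975, plus), Rpl37a (chr9:81748076-81748105, plus) and Rps14 (chr18:56498245-56498274, plus). The last lines are the 3 genes with a positive difference, Rps27l (chr8:76443643-76443672, plus), Rpl23 (chr10:83272170-83272199, minus) and Rpl6 (chr12:41011676-41011705, minus).
Rps10: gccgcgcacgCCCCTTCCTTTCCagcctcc
Rps18: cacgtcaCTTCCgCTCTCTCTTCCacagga
Rpl22: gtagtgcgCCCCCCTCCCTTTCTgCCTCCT
Rpl37a: gcatgcccgttgcgTCTCTTCCTCTTCggg
Rps14: CCCTTCCgTCTCTCTCTTTCCggtggagga
Rps27l: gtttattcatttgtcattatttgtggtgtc
Rpl23: actaaCTTCCTTTCTgaCTCTTTCCggacg
Rpl6: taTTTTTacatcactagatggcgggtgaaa

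All 5 of the lowest genes held a run that covers the annotated start. Rpl23 held runs too, Rps27l held none, and Rpl6 held only a run of T near the edge of the window. These 8 genes were picked by their differences, so the contrast between them is a description. Over all 62 genes with a start site, 54 (87.1%) held a run of at least 5 pyrimidines within 10 bases of the start, against 43.4% of 33469 rat promoters. A C exactly at the annotated start with at least 4 further pyrimidines stood in 24 of the 62 (38.7%) and in 2.63% of all promoters. This strict form was found in 7 of 24 small-subunit and 17 of 38 large-subunit genes. Only the coding strand was searched, and an annotated start can lie a few bases from the start a cell uses.

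Split by their annotated starts, the genes with the motif did not have the lower median. The median difference was −0.50 in the 24 kept genes with the strict form and −0.60 in the 37 without it. It was −0.52 in the 53 kept genes with a run near the start and −0.62 in the 8 without one. At annotated starts the strict form was found in 0 of 12 other genes known as TOP mRNA genes. The first split therefore cannot sort genes by the motif that a cell uses. A run near the start was found in 11 of these 12, but also in 43.4% of all promoters. The second split thus cannot single out the motif, and it rests on few genes without a run.

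The comparison of the pools asked how the ribosomal protein genes stood in the carcinomas against control bladder. Nearly all were lower, and by a modest amount. Of the 71 kept genes, 68 (95.8%) had a lower signal in DMA-tumor, against 55.6% of all 12074 kept genes. The median difference was −0.51, a signal 1.42-fold lower, with quartiles of −0.72 and −0.34 and a range from −1.59 to 0.34. The median of all kept genes was −0.08.

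**Figure D1:**
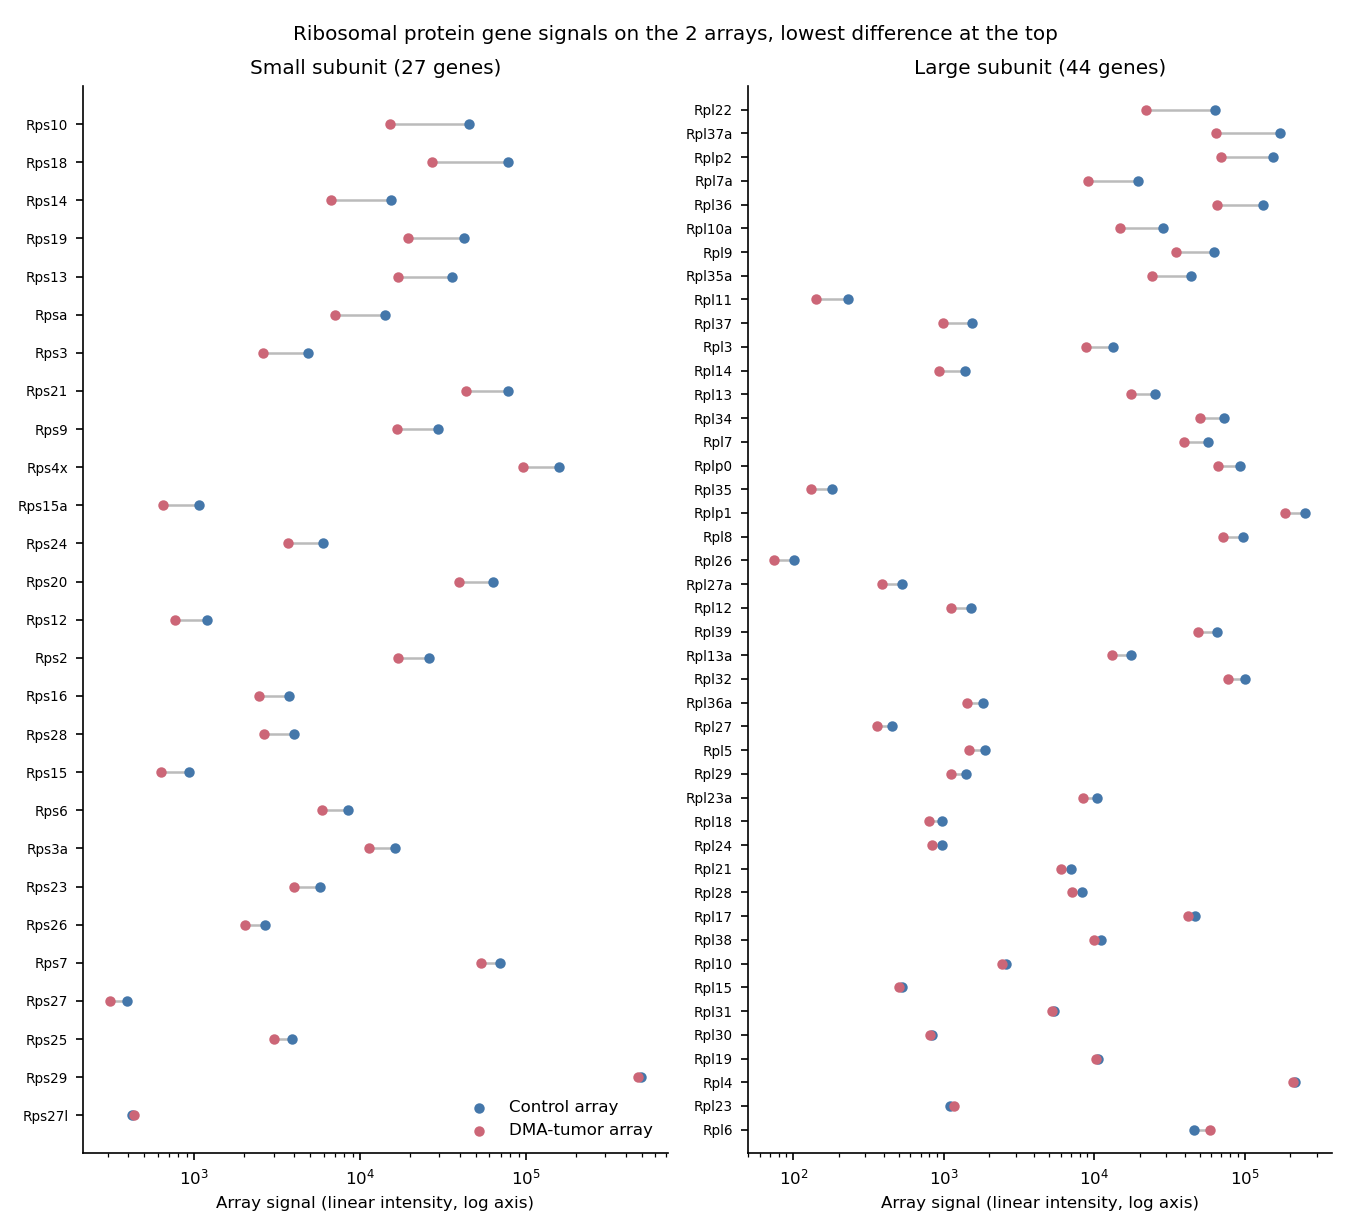
Control and DMA-tumor signal (log axis, arbitrary units) of each of the 71 kept ribosomal protein genes, 1 array each, joined by a line and ordered by their log2 difference within each subunit. The tumor signal is the lower of the pair in 68 genes, and the gap is widest for Rps10, Rps18, Rpl22 and Rpl37a.

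At the 2-fold limit the picture is less marked. 10 of 71 genes (14.1%) were at least 2-fold lower, against 10.5% of all kept genes, so this share lay near the background. None was at least 2-fold higher, against 8.87% of all kept genes. At 1.5-fold, 28 genes (39.4%) were lower and 0 were higher, against 21.5% and 16.7% of all kept genes. The methods of the study also asked for a Z-score of −2 or less beside a ratio of 0.5 or less. With a Z-score taken over all kept genes, 0 ribosomal protein genes met both limits, against 2.37% of all kept genes, and 0 met the matching limits for a higher signal, against 2.53%. The lowest Z-score among the ribosomal protein genes was −1.49. Taken this way, a lower call needed a log2 difference of −2.11 or less, so the ratio limit had no effect. The study lists downregulated genes with fold changes smaller than 2, so its own calls were looser. These counts therefore do not tell which ribosomal protein genes the study would call.

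The genes thus lay in a narrow band. The SD of the difference over the 71 genes was 0.40, against 1.02 over all kept genes. This was not particular to them. The SD was 0.44 in the mitochondrial ribosomal proteins, 0.51 in the proteasome subunits and 0.35 in the initiation factors. As a measure of background, 1276 olfactory and vomeronasal receptor genes, which the bladder is not known to use, had a median of −0.10, and 95% of them lay between −0.81 and 0.52. This range comes from genes presumed silent. It need not hold for bright probe sets, such as those of most ribosomal protein genes.

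**Figure D2:**
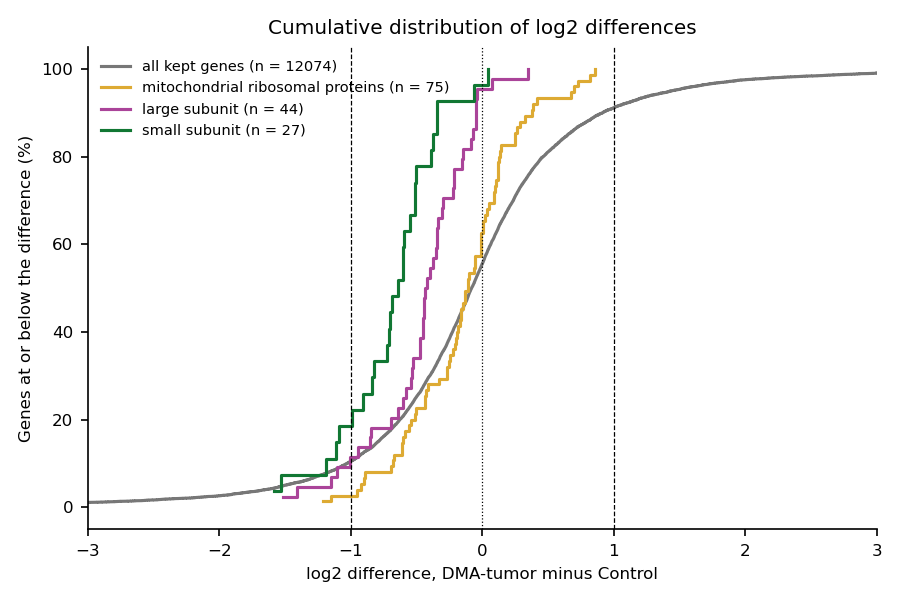
Cumulative share of genes (vertical axis) against the log2 difference, DMA-tumor minus Control (horizontal axis), for small-subunit genes, large-subunit genes, mitochondrial ribosomal proteins and all kept genes. Dashed lines mark a 2-fold difference. Through their middle and upper parts the curves of both subunits lie left of the curve of all kept genes, the small subunit (median −0.64) further than the large (median −0.43), while at the lowest differences the curves meet.

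The small subunit was lower than the large. Its 27 genes had a median difference of −0.64 (1.56-fold lower, quartiles −0.87 and −0.51), and the 44 kept genes of the large subunit had −0.43 (1.34-fold lower, quartiles −0.59 and −0.22). The medians differed by −0.22 and the means by −0.24. Of the small-subunit genes 21 of 27 lay below the median of the large subunit, and 9 of 44 large-subunit genes lay below the median of the small subunit. At 1.5-fold, 17 of the 27 small-subunit genes and 11 of the 44 large-subunit genes were lower, against 21.5% of all kept genes. At 2-fold the counts were 5 (18.5%) and 5 (11.4%), against 10.5% of all kept genes. The large-subunit shares thus lay near the background at both limits. The ranges overlapped, from −1.59 to 0.04 in the small subunit and from −1.51 to 0.34 in the large.

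Among the small-subunit proteins, the lowest was Rps10, which sits at the beak of the subunit and is mutated in some human patients with Diamond-Blackfan anaemia. Its signal was 45233 in Control and 15044 in DMA-tumor, 3.01-fold lower (log2 difference −1.59). Rps18, a protein of the subunit's head, went from 77897 to 26991 (2.89-fold lower, −1.53). These were the only small-subunit genes below −1.2.

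Then came Rps14, whose loss of 1 copy marks the human 5q- syndrome, with 15263 in Control and 6691 in DMA-tumor (−1.19). Rps19, the gene most often mutated in human Diamond-Blackfan anaemia, had 41973 and 19454 (−1.11). Rps13 had 35838 and 16834 (−1.09). By probe sets on the genes' own chromosomes, Rps14, Rps19 and Rps13 were at −0.29, −0.74 and −1.05. Rpsa, also known as the laminin receptor precursor, stayed just above the 2-fold limit with 14038 and 7068 (−0.99).

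At the other end stood Rps27l, a paralog of Rps27 known in human cells as a p53 target, with 419 in Control and 432 in DMA-tumor (0.04). It was the only small-subunit gene that was not lower, and with the arrays set to equal medians its difference was −0.0028. Rps29 had 491258 and 469407 (−0.07). This near-equality depends on the scaling, since Rps29 was at −1.28 after loess over all probe sets and at 0.19 after loess over named genes.

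The other small-subunit genes with the least difference were also lower in DMA-tumor. Rps25, which is needed for translation from some internal entry sites, had 3852 and 3038 (−0.34). Rps27 had 391 and 308 (−0.35), Rps7 had 69637 and 53559 (−0.38), and Rps26 had 2667 and 2030 (−0.39). Rps6, the substrate of S6 kinase, lay inside the middle of the subunit with 8384 and 5867 (−0.52).

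Proteins at the mRNA path were measured as 2 short lists. At the entry channel, Rps3, Rps9 and Rps2 had differences of −0.91, −0.83 and −0.60. Rps3, which also has a role in DNA repair, went from 4843 to 2583. At the exit site, Rps14, Rps28 and Rps26 had −1.19, −0.60 and −0.39. All 6 were lower, with medians of −0.83 and −0.60. By probe sets on the genes' own chromosomes, Rps14 was at −0.29 and Rps2 at −0.53.

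In the large subunit, Rpl22 was lowest with 62921 in Control and 22021 in DMA-tumor (2.86-fold lower, −1.51). Rpl22 is dispensable for translation in mice, where T cell development depends on it. Rpl37a followed with 172408 and 64851 (2.66-fold lower, −1.41). Rpl7a had 19611 and 9132 (−1.10), and Rpl36 had 132091 and 65845, 2.01-fold lower and so just past the limit. Rpl10a had 28635 and 14879 (−0.94).

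The stalk, which recruits the elongation factors, was lower in all 3 of its proteins. Rplp2 had 153949 in Control and 69248 in DMA-tumor (2.22-fold lower, −1.15). Its anchor Rplp0 had 92759 and 66640 (−0.48), and Rplp1, the partner with which Rplp2 pairs, had 252850 and 184510 (−0.45). The differences of Rplp1 and Rplp2, whose proteins form dimers, were thus unequal.

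Rpl5 and Rpl11 bind 5S ribosomal RNA and, when free, hold back the p53 inhibitor MDM2. Rpl5 had 1875 and 1477 (−0.34), and Rpl11 had 229 and 142 (−0.69). Both were lower in the tumor pool.

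Only 2 large-subunit genes had a higher signal in DMA-tumor as deposited. Rpl6 had 45977 in Control and 58351 in DMA-tumor (0.34), but −0.39 after loess over all probe sets and −0.43 after quantile normalization. Rpl23, another protein known to bind MDM2, had 1107 and 1163 (0.07), and −0.09 after quantile normalization.

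Close to 0 lay Rpl4 with 216166 and 210192 (−0.04), Rpl19 with 10636 and 10314 (−0.04), Rpl30 with 833 and 804 (−0.05) and Rpl31 with 5420 and 5231 (−0.05). Rpl4 turned on the scaling as Rps29 did, with −1.08 after loess over all probe sets and 0.19 after loess over named genes. The wall of the exit tunnel, Rpl39, Rpl17 and Rpl4, had −0.42, −0.16 and −0.04, a median of −0.16 that became 0.03 after loess over named genes, −1.08 after loess over all probe sets and −0.99 after quantile normalization. The 6 genes of the ring around the tunnel exit were all lower, with a median of −0.38.

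Some ribosomal proteins have a paralog that can take their place. Rpl22 was at −1.51 and its paralog Rpl22l1 at −0.04 (398 in Control and 386 in DMA-tumor). Rps27 was at −0.35 and Rps27l at 0.04. Rpl7 was at −0.53 (56705 and 39373), and Rpl7l1, which acts in ribosome assembly, was at 0.21 (1222 and 1415). In these 3 pairs, whose genes were all kept, the paralog had the higher difference, without a test. By the probe set on its own chromosome, Rpl22 was at −0.83, so the size of its gap depends on the probe set. Of 16 genes listed for such pairs, 12 were measured. The partner of Rpl3 (−0.60), Rpl3l, was measured but not kept. Rpl22l1 and Rpl7l1 are not matched by the symbol rule and are not counted among the 71.

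Of 16 genes that are mutated in human Diamond-Blackfan anaemia, 15 were measured. All 15 were lower (median −0.45), from Rps10 at −1.59 to Rps29 at −0.07, and 2 were at least 2-fold lower. They stood much as all 71 genes did, of which 95.8% were lower (median −0.51) and 14.1% at least 2-fold lower. Of all kept genes, 10.5% were at least 2-fold lower. The 4 genes on the X chromosome, Rps4x, Rpl39, Rpl36a and Rpl10, had differences of −0.73, −0.42, −0.35 and −0.09.

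The values also depended on which probe set stood for a gene. The array held 121 probe sets for the 72 genes, and 118 of them were kept. Of the kept probe sets 113 were lower in DMA-tumor. 44 genes had 1 probe set and 28 had several, up to 8 for Rpl39, of which 2 held identical values. Over the 26 genes with several kept probe sets, all probe sets had the same sign in 24, and the median spread of the difference within a gene was 0.22. Rat ribosomal protein genes have many near-identical processed copies in the genome, and a probe set can take up RNA of a gene and of its copies. How these probe sets divide such RNA is uncertain.

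All 10 genes that were at least 2-fold lower were genes with several probe sets. The 28 such genes had a median difference of −0.78 and were all lower. Among them the order of the subunits was reversed, with −0.73 in 13 small-subunit and −0.85 in 15 large-subunit genes. The 43 kept genes with 1 probe set had a median of −0.40 (small −0.53, large −0.34), 40 of them were lower, and none reached 2-fold. Their lowest was Rpsa at −0.99.

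The name of a probe set carries a chromosome number, or marks it as unplaced. For 48 of the 71 genes the probe set taken was on the chromosome that RefSeq gives for the gene. These had a median of −0.42, and 2 of them, Rplp2 and Rpl36, were at least 2-fold lower. For the other 23 genes the brightest probe set was on another chromosome or unplaced. These had a median of −0.84, were all lower, and 8 of them were at least 2-fold lower. Of these 23, the 12 small-subunit genes had a median of −0.78 and the 11 large-subunit genes −0.85. In the 48 genes above, the small subunit was at −0.55 and the large at −0.35.

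For 21 of those 23 genes a dimmer probe set on the gene's own chromosome was measured as well. It lay higher in 19 of 21, and the medians were −0.84 for the probe set taken and −0.45 for the own one. The gene with the widest gap was Rps24, with 5981 in Control and 3671 in DMA-tumor (−0.70) by its brightest probe set but 987 and 1289 (0.39) by its own. Rps14 moved from −1.19 to −0.29 (279 and 228). Rpl22 moved from −1.51 to −0.83 (1826 and 1030), and Rpl7a from −1.10 to −0.52.

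Rps19 moved from −1.11 to −0.74. By their own probe sets 3 of these 21 genes were still more than 2-fold lower, Rps10 at −1.36 (15686 and 6092), Rps18 at −1.20 and Rps13 at −1.05. Rpl37a has no own probe set among those with a single symbol. Its other single-symbol probe set was at −0.81 (10537 and 5990). A probe set that carries its symbol repeated, left out by the rule, was at −0.49 (310 and 221). Rps29 and Rpl39 were the only genes that were lower by their own probe set. With own probe sets throughout, 65 of 69 kept genes were lower, the median was −0.44 and 5 genes were at least 2-fold lower. The small subunit was then at −0.53 and the large at −0.35. This alternative was chosen after the data had been seen.

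**Figure D3:**
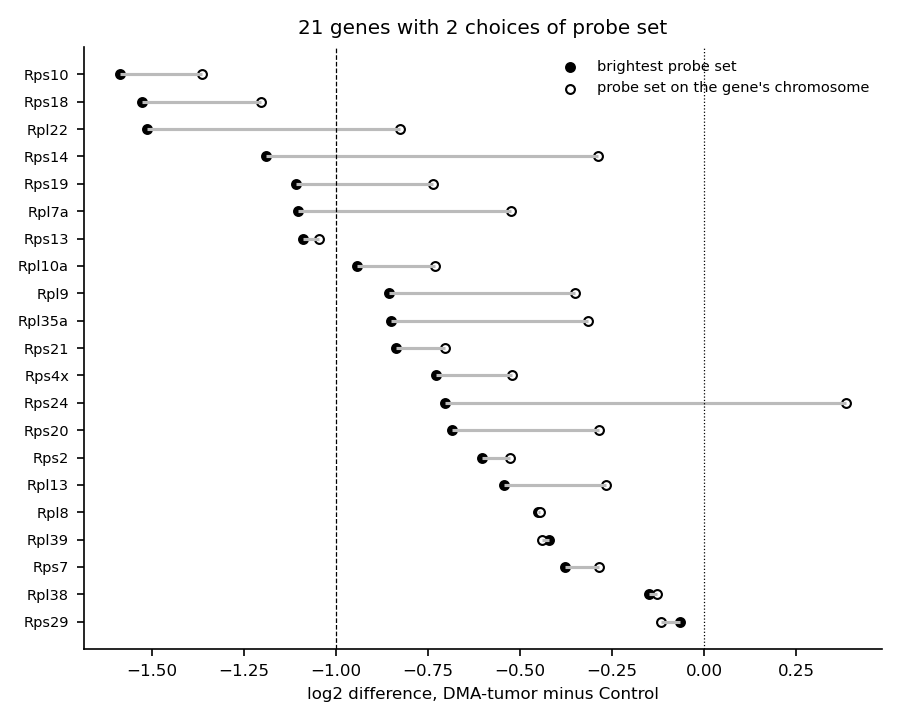
Log2 difference, DMA-tumor minus Control (horizontal axis), by the brightest probe set and by the probe set on the gene's own chromosome, for the 21 genes where these are different probe sets (rows). The own probe set lies to the right in 19 rows and crosses 0 only in Rps24.

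Probe sets named for copies of ribosomal protein genes, with a -ps or l-number ending, stood outside the rule and were mostly lower too. Of 204 kept, 172 (84.3%) were lower, against 55.6% of all kept genes, with a median of −0.45. At least 2-fold lower were 25 (12.3%), near the 10.5% of all kept genes. The copies of small-subunit genes were at −0.59 (71 probe sets) and those of large-subunit genes at −0.37 (133 probe sets). Across 61 genes, the median difference of a gene's copies and the difference of the gene itself had a Pearson's r of 0.65 and a Spearman's rho of 0.68. The points share 2 arrays and probably share transcripts, so this is no independent measurement. Among the copies of Rpl6, the gene with the highest difference, Rpl6-ps1 was at 0.42 and Rpl6-ps6 at 0.46.

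The difference was weakly related to the signal. Across the 71 genes, the difference and the mean log2 signal had a Pearson's r and a Spearman's rho of −0.28 each. This is a description across genes of 2 arrays, and over all kept genes the coefficients were −0.0021 and −0.0036. The 36 brighter genes had a median of −0.60 and the 35 dimmer genes of −0.39. Signal is not abundance here, since probe sets differ in brightness.

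**Figure D4:**
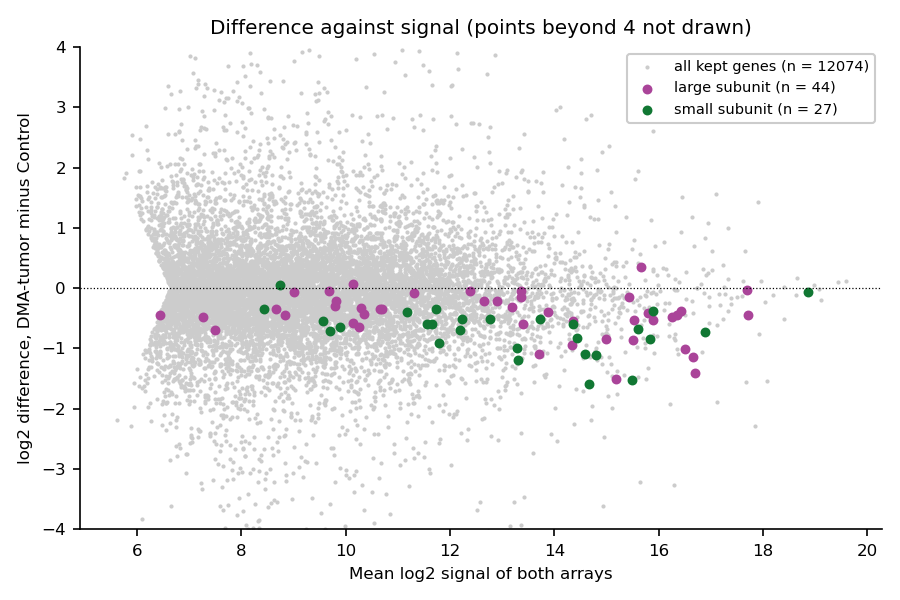
Log2 difference, DMA-tumor minus Control (vertical axis), against the mean log2 signal of both arrays (horizontal axis) for all kept genes (grey) and the small- and large-subunit genes. Most ribosomal protein genes lie below 0 at every signal, and the lowest lie among the brighter ones.

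As deposited, other genes of translation were nearer to the background. A list of genes outside the symbol rule, known as TOP mRNA genes, had 16 kept members. Of these 13 were lower, against 55.6% of all kept genes, with a median of −0.28. At least 2-fold lower was 1 gene, against 10.5% of all kept genes. That gene was Fau, itself the source of a ribosomal protein, since it encodes Rps30 fused to a ubiquitin-like protein, with 12441 in Control and 6125 in DMA-tumor (−1.02). Without it the median was −0.24. With Fau counted, the median was −0.72 after loess over all probe sets, −0.58 after quantile normalization and −0.17 after loess over named genes. All kept genes were then at −0.19, −0.34 and 0.01. At the RefSeq starts given for 12 of the listed genes, the strict form of the motif stood in 0, a run of pyrimidines covered the start in 2, and a run lay within 10 bases of it in 11. The elongation factor Eef2 had 84605 and 48703 (−0.80), and Rack1, a scaffold protein bound to the small subunit, had 31749 and 20332 (−0.64). Eef1a1, which brings aminoacyl-tRNA to the ribosome, was at −0.02, and the splicing factor Hnrnpa1 was at 0.45.

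The 32 kept initiation factors had a median of −0.10, and the 9 kept elongation and termination factors had −0.10. After quantile normalization these medians were −0.32 and −0.31, and that of the initiation factors was 0.01 after loess over named genes. None of either list differed by 2-fold as deposited. Of all kept genes, 10.5% were at least 2-fold lower and 8.87% at least 2-fold higher. The lowest initiation factor was Eif3f at −0.70 and the highest Eif2b3 at 0.96. The cap-binding protein Eif4e was at 0.47.

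The machinery that makes ribosomes had medians nearer to 0 or above it as deposited. Of 41 ribosome assembly factors, 25 had a positive difference, against 5361 of all 12074 kept genes. The median of the 41 was 0.13 (0.01 after loess over all probe sets and −0.18 after quantile normalization). Bysl, which acts in the maturation of the small subunit, had 282 in Control and 1387 in DMA-tumor, 4.92-fold higher (2.30). Rrp1b had 1101 and 392, 2.81-fold lower (−1.49). The other 39 lay within 2-fold, among them Bop1 at −0.71 and Dkc1 at −0.61. The 11 genes of the RNA polymerase I system, which transcribes ribosomal RNA, had a median of −0.01 (0.09 after loess over named genes and −0.29 after quantile normalization). The one beyond 2-fold was Taf1d with 627 and 1673 (1.42).

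Of 18 genes on the path from mTOR to TOP mRNAs, 12 were lower, with a median of −0.35. Among all kept genes 55.6% were lower. Rragd, a GTPase that signals amino acids to mTOR, had 709 and 152 (−2.22). Eif4ebp2, a repressor of cap-dependent initiation, had 10815 and 3681 (−1.55), and Sesn2, a leucine sensor that holds mTOR back, had 4046 and 1379 (−1.55). Ddit4, an inhibitor of mTOR induced by stress, had 102 and 359 (1.82). Larp1 was at 0.44. Members of this list thus lay on both sides of 0, whether they act for or against mTOR.

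As a comparison with other large complexes, 75 kept mitochondrial ribosomal proteins had a median of −0.11. Of them 47 (62.7%) were lower and 2 (2.67%) at least 2-fold lower. The 43 kept proteasome subunits had a median of −0.09, with 24 (55.8%) lower and 3 (6.98%) at least 2-fold lower. Both medians lay near that of all kept genes, −0.08, of which 55.6% were lower and 10.5% at least 2-fold lower.

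**Figure D5:**
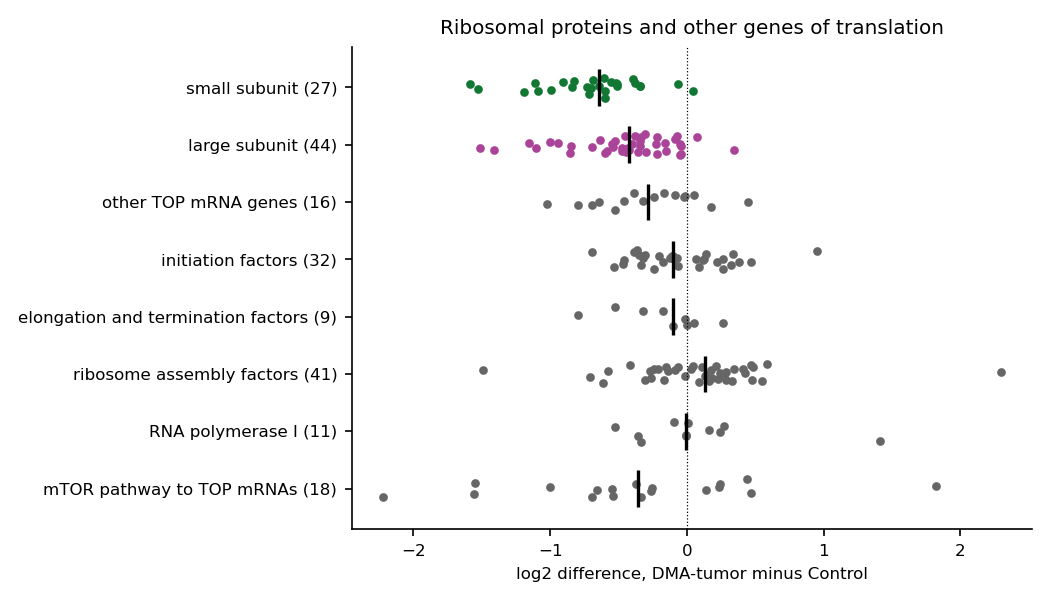
Log2 difference, DMA-tumor minus Control (horizontal axis), of each kept gene (points) and the median (bar) in each list of genes (rows). The number of genes stands beside each list. The ribosomal protein genes lie mostly left of 0, the initiation factors lie around 0 (median −0.10), and the assembly factors have a median of 0.13.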

How the data were processed

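Total RNA was extracted with TRIzol, amplified, biotin-labelled and hybridized to 1 array per pool. The values deposited by the authors are linear intensities per probe set. In the submitters' processing notes stand RMA and, as software, Affymetrix Expression Console 1.4.1, whereas the methods describe global median normalization, removal of signals below 100 and another array, so the exact normalization is not settled. The table held 68842 probe sets and 0 columns of other samples. By the platform annotation, 23446 probe sets had 1 symbol, 505 had several and 44891 had none, and only the first were used.

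The log2 of the deposited intensities was taken, and genes below 100 on both arrays were left out. A Z-score was the difference minus the mean over kept genes, divided by the SD. Alternatives were equal array medians, loess (span 0.3), quantile normalization, other filters, other probe sets and other limits. The 6 highest and 6 lowest genes of each subunit and up to 4 genes per list were named. Further genes were named for their role. The members and lists were chosen with earlier results of these data known. RefSeq holds 79 protein-coding genes of the rule, and 7 without a probe set of 1 symbol were not analysed here. Start sites and motifs came from RefSeq, GRCr8. The scripts were tested on simulated data and ran in Python 3.11.15 (pandas 2.3.3 and numpy 2.4.6, with loess from statsmodels 0.14.6 and plots from matplotlib 3.10.9). With 1 array per group, the precision is unknown.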

Additional observations from a re-analysis of the deposited data

Results flagged for a closer look

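Of 204 kept probe sets named for copies of ribosomal protein genes, outside the genes reported above, 3 had a log2 difference above 0.52, the upper end of the range that held 95% of the receptor genes. Rpl19l1 had 360 in Control and 563 in DMA-tumor (log2 difference 0.65). Rps20-ps1 had 260 and 426 (0.71). Rpl29l6 had 312 and 557 (0.84). Their parent genes Rpl19, Rps20 and Rpl29 were at −0.04, −0.69 and −0.34. The difference between copy and parent was not tested. The share above the bound was 1.47% of these probe sets, 2.51% of the receptor genes, by the making of the bound, and 18.5% of all kept genes, so the 3 are no more than such a bound leaves above it.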

How the results depend on the processing

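The direction of the median and the order of the subunits kept in every setting run, but the size depended on the scaling. The small-minus-large difference lay between −0.35 and −0.15. Within the genes with several probe sets, and within those whose probe set was not on their own chromosome, the order was reversed. After loess over all probe sets the median was −0.85 (small −1.03, large −0.68, small minus large −0.35) and 32 genes were at least 2-fold lower. After loess over named genes it was −0.37 (small −0.52, large −0.27), with 5 genes lower and 61 of 71 negative. Quantile normalization gave −0.85 (small −0.92, large −0.78) and 29 genes. These scalings moved the median of all kept genes by −0.11, 0.09 and −0.26, and relative to that median the ribosomal protein genes were at −0.43 as deposited and at −0.66, −0.37 and −0.51. With a gene's probe sets averaged, 6 genes were 2-fold lower, and with every probe set counted 17 of 118 probe sets were. Of settings added after the data had been seen, own-chromosome probe sets gave −0.53 for the small subunit and 5 genes, and genes with 1 probe set gave −0.40 (small −0.53) and 0 genes. A limit of 1.5-fold gave 28 genes, and the Z-score rule gave 0. No gene was 2-fold higher in any setting. Values with no filter, with 100 reached on both arrays, with equal array medians (11 genes lower), with low values raised to 100 and without alternative paralogs moved less than 0.1. No replicate could be left out, and no paired analysis was possible because each group had 1 array. Weak signals limit Rpl26, Rpl35 and Rpl11 most.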
